A study of Schizosaccharomyces pombe with 3 samples.

Results

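The regions described here were the most strongly transcribed tiles of the fission yeast genome in wildtype cells, as read by an Agilent 2-colour tiling array. A tile was a set of 20 probes with numbers of the same parity, odd or even, within a block of 40 consecutive probe numbers, so that each block held 1 odd and 1 even tile. Tiles were ranked by their wildtype signal, which was the median over the 20 probes of log2(median spot intensity minus local background), averaged over 3 arrays. The highest 400 of 8702 tiles were taken and are called members below. The wildtype signal chose them and is also the denominator of every ratio, so the levels and ratios of members are given as a description.

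RNA from *dhp1-1* cells (strain p1088, 2 arrays from biological replicates) and from *din1Δ* cells (strain p1044, 1 array) was labelled with Cy5, and wildtype RNA was labelled with Cy3 on the same array. The wildtype strain was p1087 on the *dhp1-1* arrays and p344 on the *din1Δ* array, so any difference between these strains is part of each difference between the mutants. All cells were grown at 30°C in rich medium to log phase. The *dhp1-1* allele codes for a Dhp1 protein truncated at its carboxyl terminus by a *ura4+* insertion. It is temperature sensitive, and 30°C is permissive for its growth. RNA of every strain had been depleted of ribosomal RNA with biotinylated probes before reverse transcription. Dyes were not swapped, and *dhp1-1* replicate 1 shared a slide with *din1Δ* while replicate 2 lay on another.

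Dhp1 is the fission yeast form of the nuclear exoribonuclease known as Rat1 in budding yeast and Xrn2 in animals, which degrades RNA from its 5′ end. Behind a cleaved nascent transcript it follows RNA polymerase II and takes part in ending transcription, and the homologous enzyme of budding yeast also trims precursors of ribosomal and small nucleolar RNA. Din1 binds Dhp1, and its budding yeast counterpart Rai1 stabilizes the nuclease and removes defective cap structures. The tiles just downstream of strongly transcribed regions were therefore described beside the members themselves.

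The wildtype signal of members lay between 11.52 and 15.84 on the log2 scale, with a median of 12.20, against a median of 7.63 over all tiles. The limit fell in a dense part of the ranking. Tile 40241, named here by its first probe and the last one taken, had wildtype signals of 11.01, 11.87 and 11.67 on the arrays of *dhp1-1* replicate 1, *dhp1-1* replicate 2 and *din1Δ*. Tile 57561, the first one left out, had 11.48, 11.85 and 11.23 on these arrays. Of the 400 members, 275 were among the highest 400 on each array taken alone. The *din1Δ* array alone placed 353 members among its highest 400, *dhp1-1* replicate 1 alone placed 359 and replicate 2 alone placed 335. In the wildtype channel, 92.5% of the members' probes on the *din1Δ* array were well above background, and 94.0% and 92.8% on the *dhp1-1* arrays, against 67.2%, 71.7% and 67.3% over all tiles.

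Members were 201 odd and 199 even tiles. They formed 310 runs of adjacent tiles on one strand, of which 248 were single tiles, 47 were pairs and 15 were longer. Members were not spread evenly along the probe numbers. Up to the end of *ipi1* they made up 361 of 6706 tiles (5.38%), and from *epe1* on 13 of 1328 tiles (0.979%), with 26 of 668 tiles (3.89%) between these genes. The genes that could be placed on the array had a median of 25 probes in the first part and of 5 probes in the last part. Probe spacing therefore differed between these parts of the array, and a tile covered a longer piece of the genome in the last one.

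Probe sequences and probe positions were not used here, so most members carry no gene name. The strand of a tile was read from the 36 genes that could be placed. Odd probes read the forward strand for 19 of 19 genes up to *ipi1*, and even probes read it for 16 of 17 genes from *epe1* on. The 26 members between these genes were left without a direction. Of the 36 genes, which code for heterochromatin and RNA processing factors and for actin, 2 overlapped members. One was *act1*, the actin gene, whose listed ratios matched 2 runs of probes, of which the first was used. Its tile 37402 ranked 27, with wildtype signals of 14.4, 14.9 and 15.4 on the arrays of *dhp1-1* replicate 1, replicate 2 and *din1Δ*. Its log2(mutant/wildtype) was −0.19 and −0.27 in the *dhp1-1* replicates and −0.22 in *din1Δ*. The other was *rix1*, which codes for a subunit of a ribosome maturation complex that also holds Ipi1. Its tiles 124882 and 124922 ranked 389 and 363. Tile 124882 had log2 ratios of 0.10 and −0.19 in *dhp1-1* and of 0.45 in *din1Δ*, and tile 124922 had 0.16 and −0.01 in *dhp1-1* and 0.55 in *din1Δ*. The *act1* tile was thus slightly below 0 on all 3 arrays, and the *rix1* tiles were highest in *din1Δ*.

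Across all members the ratios were centred near 0 and were widely spread. The median log2 ratio of members was −0.00 in *dhp1-1* replicate 1, −0.08 in replicate 2 and 0.03 in *din1Δ*, against medians of 0.03, 0.02 and 0.01 over all tiles on these arrays. Loess normalization centres the ratios at each brightness, so a median near 0 is partly set by the processing. The standard deviation over members was 0.54, 0.49 and 0.50, against 0.35, 0.30 and 0.26 over all tiles. Members below 0 on all 3 arrays numbered 105, and members above 0 on all 3 numbered 91. A further 66 members were below 0 in both *dhp1-1* replicates and above 0 in *din1Δ*, and 41 showed the reverse. The *dhp1-1* replicates had the same sign at 75.75% of members and at 75.2% of all tiles.

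In *dhp1-1*, 78 members were higher and 95 were lower than wildtype at an adjusted p under 0.05 (limma, Benjamini-Hochberg adjustment over all 8702 tiles). Over all tiles, 18.8% were called higher and 10.4% lower, or 29.2% in either direction, and among members 19.5% were called higher and 23.75% lower. As the denominator chose the members, these counts are read no further. When tiles were instead chosen by the wildtype channel of the *din1Δ* array alone, 69 of 400 were higher and 104 were lower in *dhp1-1*, and 353 of these tiles were members. Larger changes were fewer. Past 1.6-fold, *dhp1-1* had 16 members higher and 26 lower, beside 3.61% and 0.839% of all tiles, and *din1Δ* had 13 higher and 19 lower, beside 0.310% and 1.52% of all tiles. The scaling moved the balance of calls at members in *dhp1-1*. With median centring in place of loess 44 members were called higher and 86 lower, and with the median over the probes of a tile 48 higher and 110 lower. The shares of all tiles called under these settings are not given. Whether the balance moved at members alone was therefore not tested.

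**Figure D1:**
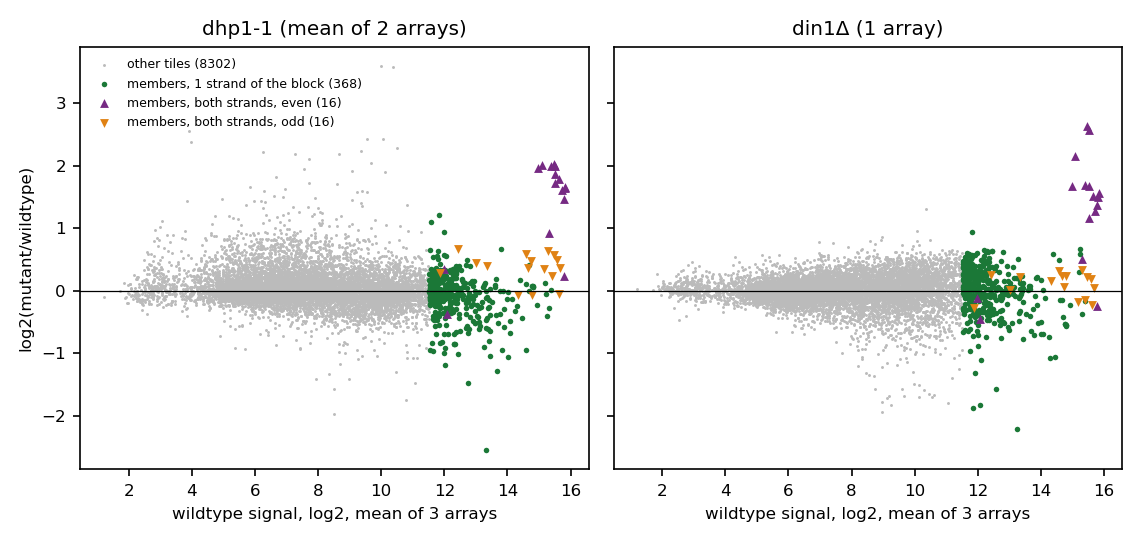
Log2(mutant/wildtype) of each tile against its wildtype signal (log2, mean of 3 arrays), for *dhp1-1* (mean of 2 arrays, left) and *din1Δ* (1 array, right). Grey points are the 8302 other tiles, green points the 368 members whose block holds 1 member, and triangles the 32 members whose block holds 2, where the raised points at the far right are mostly even tiles.

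Most members past 1.6-fold on the high side came from blocks in which both tiles were members. There were 16 such blocks with 32 members. Of these members 26 were called higher and 1 lower in *dhp1-1*, and 13 were past 1.6-fold on the high side in *dhp1-1* and 12 in *din1Δ*. Without these blocks 368 members remained, of which 52 were called higher and 94 lower in *dhp1-1*, and 3 members in *dhp1-1* and 1 in *din1Δ* were past 1.6-fold on the high side. The 26 members past 1.6-fold on the low side in *dhp1-1* and the 19 in *din1Δ* all lay outside these blocks. Selecting blocks in this way was decided after their values had been seen.

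Of the 16 blocks, 11 lay within a stretch of 15 blocks, from probe 114001 to probe 114600, which followed *las1* on the array. Another block, at probes 151521 and 151522, lay between *grc3* and *cid14*, and 5 rRNA genes follow *grc3* in the gene table of the assembly ASM294v3. Whether its tiles read these rRNA genes was not tested, because no probe position was used. The stretch held 23 members, 11 even and 12 odd, and 7 tiles that were no members.

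The 11 even members of the stretch were among the 26 brightest tiles of the array, and the mutants were higher than wildtype at each of them. The first of the ranking was tile 114522, with wildtype signals of 15.5, 15.5 and 16.4 on the arrays of *dhp1-1* replicate 1, replicate 2 and *din1Δ*, and its log2 ratios were 1.83 and 1.51 in *dhp1-1* and 1.56 in *din1Δ*. Tiles 114282 and 114002, which ranked 2 and 3, had mean *dhp1-1* log2 ratios of 1.65 ± 0.09 and 1.48 ± 0.09 (SE of the limma fit, n = 2) and *din1Δ* log2 ratios of 1.498 and 1.37. In this fit the spread of a tile is drawn towards that of all tiles. The standard deviation of the replicates alone was 0.04 at both tiles. Over the 11 even members the log2 ratios were 1.51 to 2.38 in *dhp1-1* replicate 1, 1.45 to 1.80 in replicate 2 and 1.17 to 2.64 in *din1Δ*. All 3 arrays thus lay above 0 at each of these tiles, by more than 1 log2 unit. The highest was tile 114442, with log2 ratios of 2.32 and 1.74 in *dhp1-1* and 2.64 in *din1Δ*. Tile 114162 was close to it with 2.25 and 1.74 in *dhp1-1* and 2.57 in *din1Δ*. The odd tiles of these blocks were alike too. Tile 114161 had −0.20 and 0.07 in *dhp1-1* and 0.23 in *din1Δ*, and tile 114441 had −0.19 and 0.05, and 0.16. The ratios thus recurred along the stretch. Whether its tiles read copies of the same sequence was not tested, so counts of its tiles may not be counts of separate regions. Mutant RNA carried Cy5 on every array and dyes were not swapped, so dye and mutation cannot be told apart at these tiles. The parts of the dye and of the ribosomal RNA depletion in these ratios were not tested.

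The odd strand of the stretch was also bright in wildtype but changed less. Of the 12 odd members, 11 shared a block with an even member, and tile 114041 lay in a block whose even tile was no member. The 12 had log2 ratios of −0.20 to 1.19 in *dhp1-1* replicate 1, 0.05 to 0.99 in replicate 2 and −0.18 to 0.41 in *din1Δ*, and 9 of them were called higher in *dhp1-1*. On none of the 3 arrays did the ranges of odd and even members overlap. The block between *grc3* and *cid14* showed the same order. Its even tile 151522 had log2 ratios of 2.25 and 1.73 in *dhp1-1* and 1.68 in *din1Δ*, and its odd tile 151521 had 0.51 and 0.66 in *dhp1-1* and 0.31 in *din1Δ*.

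The 7 tiles of the stretch that were no members differed between the mutants. The 4 even ones had log2 ratios of 2.65 to 3.13 in *dhp1-1* replicate 1, 1.20 to 1.73 in replicate 2 and 0.46 to 0.96 in *din1Δ*. The 3 odd ones had 1.604 to 1.85 and 1.09 to 1.32 in *dhp1-1* and 0.27 to 0.52 in *din1Δ*. At all 7 the *dhp1-1* ratio exceeded that of *din1Δ* at an adjusted p under 0.05 (limma contrast over all 8702 tiles), a call made at 8.77% of all tiles in this direction. At tile 114082 the difference was 1.62 ± 0.37 (SE of the limma fit), with an adjusted p of 0.00600. The wildtype channel was uneven at these 7 tiles. It was 7.3 to 8.5 on the array of *dhp1-1* replicate 1, 11.5 to 12.9 on that of replicate 2, and 7.2 to 8.8 on the *din1Δ* array. Replicate 2 was thus far brighter than both other arrays there, and the part of this in the ratios was not tested.

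**Figure D2:**
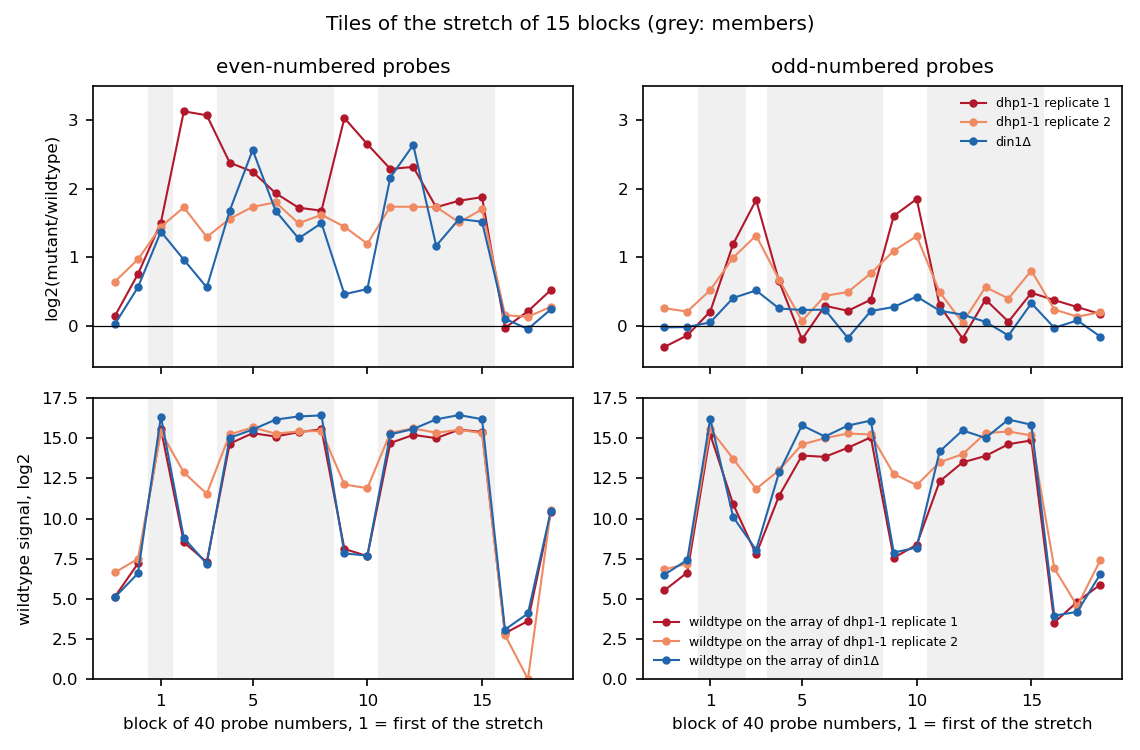
The stretch of 15 blocks and its neighbours, with even tiles on the left and odd tiles on the right, members on grey ground, and 1 line per array. The upper panels give log2(mutant/wildtype) and the lower panels the wildtype signal (log2), which dips at the tiles that are no members on all 3 arrays, least on that of *dhp1-1* replicate 2.

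The 4 other blocks with 2 members lay elsewhere on the array, and their ratios were smaller. In the block at probes 26601 and 26602, tile 26602 had log2 ratios of 1.15 and 0.69 in *dhp1-1* and 0.51 in *din1Δ*. In the block at probes 70681 and 70682, tile 70681 had 0.54 and 0.45 in *dhp1-1* and 0.19 in *din1Δ*. Tile 120682, the fourth brightest of all tiles, had wildtype signals of 15.4 and 15.6 on the *dhp1-1* arrays and of 16.4 on the *din1Δ* array, and log2 ratios of 0.29 and 0.18 in *dhp1-1* and −0.24 in *din1Δ*. In the block at probes 118321 and 118322 the even tile was lower in both mutants, with log2 ratios of −0.41 and −0.34 in *dhp1-1* and −0.46 in *din1Δ*. High brightness on both strands was thus not tied to a rise at every block.

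Outside these 16 blocks the members highest in *dhp1-1* were tiles 174001, 114041, 13681, 14961 and 74201. Tile 174001, the last odd tile of the array, had log2 ratios of 1.34 and 1.08 in *dhp1-1* and 0.94 in *din1Δ*. Tile 114041, an odd tile of the stretch, had 1.19 and 0.99 in *dhp1-1* and 0.41 in *din1Δ*. Tiles 13681 and 14961 were raised in *dhp1-1* and stood near 0 in *din1Δ*. Tile 13681 had 0.66 and 1.22 in *dhp1-1* and 0.16 in *din1Δ*, and tile 14961 had 0.73 and 0.63 in *dhp1-1* and −0.09 in *din1Δ*. Tile 74201 had 0.79 and 0.52 in *dhp1-1* and 0.18 in *din1Δ*.

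The members lowest in *dhp1-1* were also below 0 in *din1Δ*, by a smaller amount. Tile 111681 had log2 ratios of −2.53 and −2.56 in *dhp1-1*, which corresponds to 0.17 of the wildtype signal, and of −0.48 in *din1Δ*. Its wildtype signal was 13.0 and 12.7 on the *dhp1-1* arrays and 14.3 on the *din1Δ* array. Tile 111601, 2 tiles before it on the same strand, had −1.29 and −1.27 in *dhp1-1* and −0.40 in *din1Δ*. The tiles around these members moved the other way. Tile 111561, just upstream of tile 111601 and no member, had 2.11 and 1.70 in *dhp1-1* and 0.28 in *din1Δ* (adjusted p = 8.46e-12 for *dhp1-1* and 1.65e-06 for the difference between the mutants, limma). Tile 111641, between both members, had 0.74 and 0.36 in *dhp1-1* and 0.80 in *din1Δ*. Tile 111721, just downstream of tile 111681, had 1.30 and 0.83 in *dhp1-1* and 0.10 in *din1Δ* (adjusted p = 9.21e-08 for *dhp1-1* and 0.000839 for the difference, limma). Ratios thus alternated along this strand in *dhp1-1*, low at the tiles bright in wildtype and high at the dimmer tiles beside them. The 3 arrays agreed on the sign of the ratio at each of these 5 tiles.

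A similar pair was tile 65161 and its upstream neighbour. Tile 65161 had log2 ratios of −1.09 and −1.03 in *dhp1-1* and −0.68 in *din1Δ*. Tile 65121, just upstream of it and no member, had 1.51 and 1.15 in *dhp1-1* and −0.01 in *din1Δ* (adjusted p = 1.50e-09 for *dhp1-1* and 1.74e-05 for the difference, limma). At tiles 101562 and 55282, members next to them on the same strand were low as well. In the run of 4 even members from probe 101522 to probe 101680, 3 were lower in *dhp1-1*. Tile 101522 had −1.06 and −0.95, tile 101562 had −1.68 and −1.28, and tile 101602 had −0.95 and −0.76 in *dhp1-1*, against −0.29, −0.76 and −0.46 in *din1Δ*. The fourth, tile 101642, had −0.08 and −0.27 in *dhp1-1* and −0.11 in *din1Δ*. Tile 55282 had −1.38 and −0.997 in *dhp1-1* and −0.88 in *din1Δ*, and the next tile, 55322, had −1.03 and −0.80 in *dhp1-1* and −0.70 in *din1Δ*.

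The members lowest in *din1Δ* stood near 0 in *dhp1-1*, in at least 1 replicate. Tile 119281 had a log2 ratio of −2.21 in *din1Δ*, and of 0.03 and 0.15 in *dhp1-1*. Tile 119321, just downstream of it, went opposite ways in the mutants, with 0.997 and 1.09 in *dhp1-1* and −1.66 in *din1Δ* (adjusted p of the difference 2.43e-10, limma). Tile 119682 had −1.87 in *din1Δ* and −0.26 and 0.08 in *dhp1-1*, and the tiles on either side of it, 119642 and 119722, had −1.57 and −1.50 in *din1Δ*. Tile 87961 had −1.82 in *din1Δ*, and −0.63 and 0.01 in *dhp1-1*. Its downstream neighbour, tile 88001, had −1.39 in *din1Δ* and −0.27 and 0.14 in *dhp1-1*. These rest on 1 *din1Δ* array. The wildtype channel also differed between arrays at single tiles. At member tile 116922 the wildtype signal was 9.95 on the *din1Δ* array and 12.5 and 12.9 on the *dhp1-1* arrays, and the *dhp1-1* ratios there were 0.75 and 0.53. At tile 116922 array and strain cannot be told apart. At tile 114041 the wildtype signal was 10.9 and 13.7 on the *dhp1-1* arrays, a gap between arrays that share a wildtype strain. It was 10.1 there on the *din1Δ* array.

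**Figure D3:**
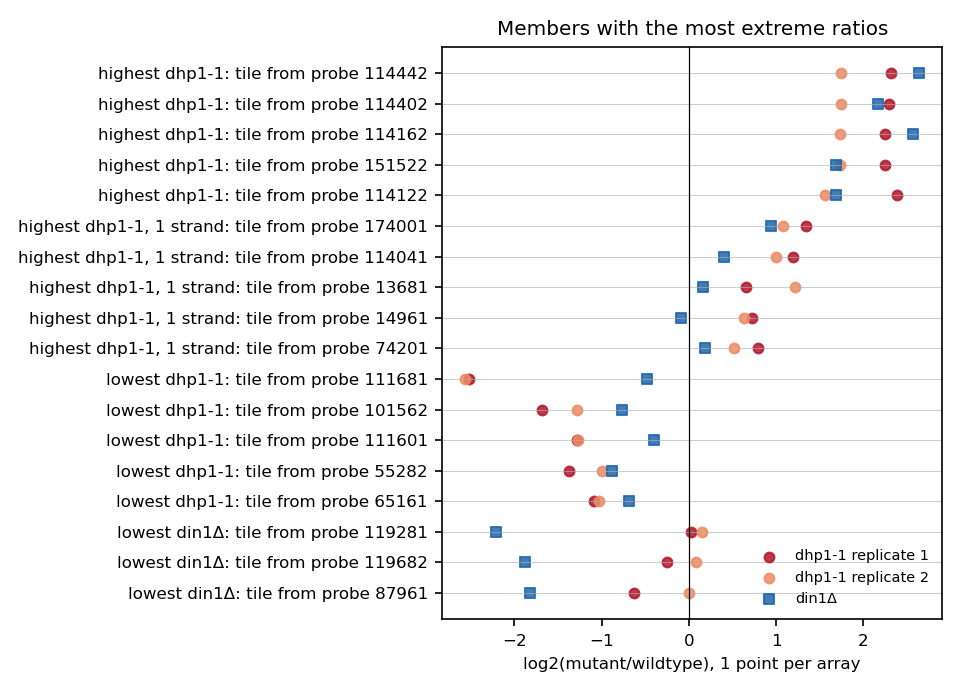
Log2(mutant/wildtype) on each array (2 circles for *dhp1-1*, 1 square for *din1Δ*) at the members with the highest and lowest ratios, each named by its first probe. Tiles 111681 and 119281 lie farthest from the other mutant, with *dhp1-1* near −2.5 and *din1Δ* near −0.5 at the one and *din1Δ* alone low at the other.

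The mutants differed at 96 members (24.0%). The *dhp1-1* ratio was higher at 39 and lower at 57 of them, at an adjusted p under 0.05 for the contrast *dhp1-1* minus *din1Δ*, a call made at 13.3% of all tiles (8.77% higher and 4.56% lower). With 1 *din1Δ* array, its spread was assumed to be that of the *dhp1-1* arrays. The count depended on the processing. With the scanner software ratio it was 11, and with median centring it was 56, of which 9 were higher and 47 were lower in *dhp1-1*. The 13.3% of all tiles belongs to the main processing only. Wildtype strain and mutant cannot be told apart in this contrast.

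The longest run of members was a run of 6 odd tiles from probe 17721 to probe 17959, between *clr4* and *air1* on the array. Its log2 ratios were −0.25 to −0.19 in *dhp1-1* replicate 1, 0.25 to 0.35 in replicate 2 and −0.56 to −0.42 in *din1Δ*. The *dhp1-1* replicates thus had opposite signs at every tile of it, and none of the 6 was called. The array of replicate 1, which shared a slide with *din1Δ*, lay on the side of *din1Δ*. This was not limited to the run. Over members the log2 ratios of *din1Δ* had a correlation of 0.69 with replicate 1 and of 0.45 with replicate 2. Over all tiles these correlations were 0.40 and 0.12. The blocks with 2 members weighed on the values of members. Over their 32 members the correlations were 0.95 and 0.93. Over the 231 members of known direction with no member as a flank, they were 0.50 and 0.17. The replicates had a correlation of 0.90 with each other over members and of 0.84 over all tiles. The part of the shared slide in the likeness of the mutants was not tested. The 4 runs of 5 tiles all lay in the stretch described above. A run of 4 odd tiles from probe 78681, between *clr1* and *cdc20*, had log2 ratios of −0.00 to 0.36 and −0.04 to 0.12 in *dhp1-1* and −0.10 to 0.03 in *din1Δ*, and none was called.

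The opposite strand of the same blocks was read from 368 tiles that were no members. The ranking left these tiles out by their own wildtype signal, which is the denominator of their ratios. The flanking tiles below were filtered in the same way, so both sets of ratios are given as a description. In *dhp1-1*, 57 of the opposite tiles were higher and 35 were lower, beside 18.8% and 10.4% of all tiles. Their median wildtype signal was 7.81, against 7.63 over all tiles. The *din1Δ* array stood apart. The median log2 ratio of the opposite tiles was −0.03 and 0.07 in *dhp1-1* and −0.13 in *din1Δ*, and 286 of them were below 0 in *din1Δ*. Only 22.3% were thus above 0 in *din1Δ*, against 52.0% of all tiles. The mutants differed at 43 opposite tiles (11.7%), all higher in *dhp1-1*, beside 8.77% higher and 4.56% lower over all tiles. Within *dhp1-1* the replicates were not alike, since the opposite tile was above its member at 47.8% of blocks in replicate 1 and at 81.5% in replicate 2. Past 1.6-fold, 5 of the 368 opposite tiles were higher and 1 was lower in *dhp1-1*, a smaller share than the 3.61% and 0.839% of all tiles.

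The highest opposite tiles in *dhp1-1* were 114042 in the stretch, 54002 and 56281. Tile 54002 had log2 ratios of 1.39 and 0.72 in *dhp1-1* and −0.14 in *din1Δ*, with an adjusted p of 4.67e-07 for *dhp1-1* and of 0.000371 for the difference between the mutants (limma). Tile 56281 had 1.12 and 0.69 in *dhp1-1* and 0.27 in *din1Δ*, with an adjusted p of 0.0183 for the difference. Both tiles read the strand opposite a member, and in both the *dhp1-1* replicates were above *din1Δ*.

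Next to the members on the same strand, *dhp1-1* signal was raised more often downstream than upstream. Of 289 downstream tiles that were no members, 102 were higher and 32 were lower in *dhp1-1*, beside 18.8% and 10.4% of all tiles. Of 288 upstream tiles, 62 were higher and 21 were lower. The median log2 ratio downstream was 0.16 and 0.09 in the *dhp1-1* replicates and 0.02 in *din1Δ*, and upstream it was 0.08 and 0.04 in *dhp1-1* and 0.10 in *din1Δ*. Past 1.6-fold in *dhp1-1*, 31 downstream tiles were higher and 2 lower, and 16 upstream tiles were higher and 0 lower, beside 3.61% higher and 0.839% lower over all tiles. The sides held like wildtype signal, with medians of 8.23 downstream and 8.17 upstream.

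The difference between the sides was tested directly at the 231 members whose direction was known and neither of whose flanks was a member. For each array the ratio of the upstream tile was taken from that of the downstream tile, and the differences were fitted with limma for all tiles. The downstream side was higher in *dhp1-1* at 60 members (26.0%) and the upstream side at 32 (13.9%), beside 16.5% and 16.8% of all tiles with both neighbours. The median difference was 0.11 in *dhp1-1* replicate 1, 0.07 in replicate 2 and −0.04 in *din1Δ*, against 0.00 on each array over all tiles. Downstream exceeded upstream at 136 members in replicate 1, at 131 in replicate 2 and at 103 in *din1Δ*, of 231. Odd members had 29 calls higher downstream and 17 higher upstream, and even members had 31 and 15. Without the blocks in which both tiles were members, 56 and 30 of 221 were called. The difference between the sides was itself larger in *dhp1-1* than in *din1Δ* at 36 members and smaller at 16, beside 7.37% and 7.45% of all tiles. The sides were set from the strand of placed genes and not from a transcript map, and a member at the middle of a long transcript has that transcript on both sides.

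Farther downstream the replicates were not alike. In *dhp1-1* replicate 1 the median log2 ratio was 0.16 in the first tile downstream, 0.08 in the second, 0.07 in the third and 0.05 in the fourth. In replicate 2 it was 0.09, 0.03, 0.05 and 0.07 at these tiles, and in *din1Δ* 0.02, 0.02, −0.01 and −0.01. The first tile had the highest median in both replicates, but the fourth was close to it in replicate 2, and the quartiles of neighbouring tiles overlapped on every array.

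**Figure D4:**
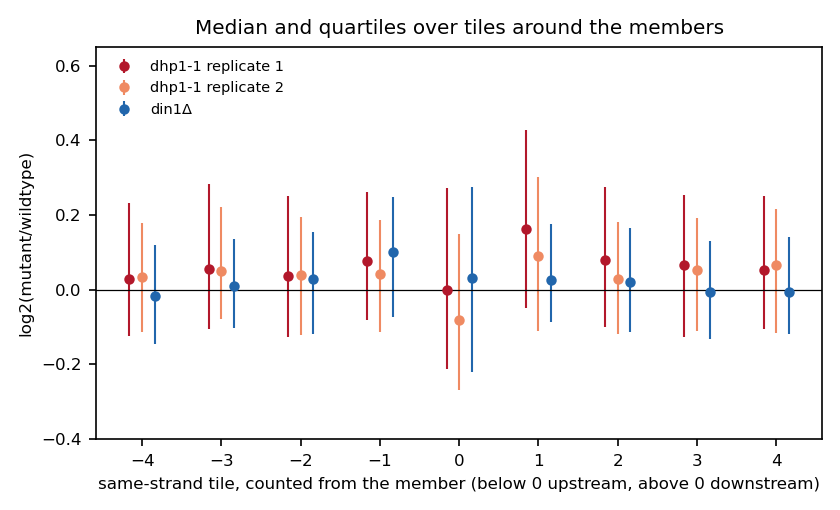
Median log2(mutant/wildtype) at the member (0) and at the same-strand tiles up to 4 places upstream (below 0) and downstream (above 0), per array, with bars from the lower to the upper quartile over the members at 0 and over tiles that were no members elsewhere. The first downstream tile has the highest medians in both *dhp1-1* replicates, 0.16 and 0.09, and *din1Δ* is highest at the first upstream tile, at 0.10.

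The highest downstream tiles in *dhp1-1* were 114082, 114362 and 114081, and the highest upstream tiles were 114042, 114322 and 111561. All but the last lay in the stretch. Tile 114042 had log2 ratios of 3.13 and 1.73 in *dhp1-1* and 0.96 in *din1Δ*, and tile 114082 beside it had 3.07 and 1.30 in *dhp1-1* and 0.56 in *din1Δ*. The *dhp1-1* replicates differed by more than 1 log2 unit at both tiles, and each of them exceeded the *din1Δ* value. At members just inside the limit of the ranking the ratios were small in *dhp1-1*. Tile 85642 had −0.19 and 0.16 in *dhp1-1* and −0.66 in *din1Δ*, and tile 107442 had 0.10 and −0.11 in *dhp1-1* and 0.26 in *din1Δ*. Tile 40241 had 0.18 and 0.37 in *dhp1-1* and 0.03 in *din1Δ*. Just outside it, tile 57561 had 0.01 and −0.21 in *dhp1-1* and 0.48 in *din1Δ*, tile 43961 had 0.03 and −0.13 in *dhp1-1* and 0.22 in *din1Δ*, and tile 168362 had −0.24 and −0.44 in *dhp1-1* and 0.14 in *din1Δ*.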

How the data were processed

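The authors scanned the arrays, extracted spots with Feature Extraction 10.7.3.1 and deposited median spot and background intensities, processed signal intensities, flags, the log10 ratio of Cy5 over Cy3 and its scanner p-value. For 174063 probes with a number, log2 ratios were deposited in a further table, which holds 0 where that p-value is 0.05 or more. Genome builds named by the file header and the paper differ, and no coordinate is given.

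Intensities were corrected with normexp (offset 50) and loess in limma 3.58.1 (R 4.3.3), without control and outlying spots, and no spot was saturated. Probe ratios were averaged over tiles (at least 5 probes per array). The fit used lmFit and eBayes on 8702 tiles, with Benjamini-Hochberg adjustment and *din1Δ* as its own coefficient. The signal of the ranking was background-subtracted with a floor of 1. Python 3.11.15 handled the tables, with pandas 2.3.3 and numpy 2.4.6. The fit was also run on simulated tiles with independent noise of the same spread at every tile. Spread shared by neighbouring tiles or by a slide was not simulated, so this run does not test the calls against it.

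The 36 genes were placed by matching their listed ratios to runs of probes within 1e-08 on the log2 scale, 26 of them with a single matching run. The strand of a gene was inferred from its locus tag and the order of tags along the chromosome in the table of ASM294v3. Tiles were named by rank, run length, extreme ratios or overlap with a placed gene. Neighbouring tiles of the most extreme members, tile 116922 and the blocks with 2 members were chosen after their values were seen. One placed gene is not reported here. The members and lists were chosen with earlier results of these data known. The alternatives were other background correction, normalization, probe filters, tile averages, rankings and each *dhp1-1* replicate left out. The number of arrays limits the precision, and p-values of *dhp1-1* rest on 2 replicates. Each SE and p-value also rests on the spread of all tiles, towards which eBayes draws that of a single tile.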

Additional observations from a re-analysis of the deposited data

Results flagged for a closer look

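The log2 ratio differed between *dhp1-1* and *din1Δ* at 13 of the members named for their rank or an extreme ratio (limma contrast, adjusted over all tiles). This call was made at 13.3% of all tiles, with *dhp1-1* higher at 8.77% and lower at 4.56%. Choosing tiles by an extreme ratio in either mutant favours a large difference, so the 13 are given as a description. With the scanner software ratio the mutants differed at 11 members in all, in place of 96. The 13 therefore cannot all be among those 11, and which of them are is not given. The *dhp1-1* ratio was lower than that of *din1Δ* by the largest amount at tile 111681, with a difference of −2.06 (adjusted p = 1.32e-08), and further at tile 111601 with −0.88 (adjusted p = 0.000536), tile 101562 with −0.72 (adjusted p = 0.00740), tile 114442 with −0.61 (adjusted p = 0.0356) and tile 114162 with −0.57 (adjusted p = 0.0395).

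It was higher than that of *din1Δ* at tile 119281, with a difference of 2.30 (adjusted p = 3.50e-09), at tile 119682 with 1.79 (adjusted p = 3.07e-07) and at tile 87961 with 1.51 (adjusted p = 2.54e-05). These 3 tiles were named for their low *din1Δ* ratio. The difference was 0.77 at tile 13681 (adjusted p = 0.00810), 0.76 at tile 14961 (adjusted p = 0.00201), 0.69 at tile 114041 (adjusted p = 0.00541), 0.65 at tile 85642 (adjusted p = 0.0121) and 0.47 at tile 120682 (adjusted p = 0.0456). Among members named for another reason, the difference was −0.50 and −0.47 at the *rix1* tiles 124882 and 124922 (adjusted p = 0.0435 and 0.0489), and tiles 101522 and 119642 passed as well (adjusted p = 0.00312 and 6.74e-07). Each rests on 1 *din1Δ* array and on different wildtype strains, and the wildtype channel of all 3 arrays chose the tiles.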

How the results depend on the processing

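No paired analysis was possible because *din1Δ* has 1 array. Leaving out a *dhp1-1* array leaves no residual spread, so calls could not be tested without it.

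With the scanner software ratio, *dhp1-1* calls numbered 104 at members (46 higher, 58 lower) in place of 173, 105 at tiles chosen on the *din1Δ* wildtype channel in place of 173, and 57 at opposite tiles in place of 92, and the mutants differed at 11 members in place of 96. With median centring, opposite tiles had 50 calls and the mutants differed at 56 members. These counts were not set beside the share of all tiles called under the same setting. With the deposited log2 table, in which most probes are 0, limma called 1 member, 1 tile of the other choice, 0 opposite, 0 downstream and 0 upstream tiles, and 0 members for the difference between mutants; 129 members had an unadjusted p under 0.05 in *dhp1-1*. With the median over the probes of a tile the median member ratio was −0.110 in *dhp1-1* and −0.032 in *din1Δ*, in place of −0.041 and 0.029.

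Without 1 *dhp1-1* replicate, 47 to 48 members, 4 to 14 opposite tiles, 26 to 42 downstream tiles and 15 to 24 upstream tiles were past 1.6-fold. Leaving out replicate 2 gave 14 opposite tiles in place of 6. Without the blocks that hold 2 members, a choice made after seeing the data, the counts of calls stayed within 1.5 times, but members past 1.6-fold on the high side fell to 3 in *dhp1-1* and 1 in *din1Δ*, in place of 16 and 13. Within the shared slide the median of *dhp1-1* replicate 1 minus *din1Δ* over members was 0.00. Over the named tiles, none of 259 values under an alternative reversed a call, and 38 lost it, 29 of them with the deposited table.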
